A study of Rattus norvegicus with 12 samples.

Results

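A group of 64 genes, of 32623 in the count table, rose on plastic between passage 3 and passage 6 of cultured rat cardiac fibroblasts and was lower again in passage 6 cells that had been moved to a soft gel. A gene belonged to the group if its lowest plastic level at passage 6 was at least 2 CPM and at least 1.5 times its highest plastic level at passage 3. Its soft gel level at passage 6 also had to be lower than the plastic level by a factor of at least 1.3 in each of the 3 pairs of libraries. Finally, the log2 ratio of soft gel to plastic, with 1 added to each CPM, had to exceed -0.7 in at least 1 of the 3 pairs of passage 3. CPM are counts divided by the library's total count and scaled to a sum of 1000000 a library. The members were thus chosen from these same measurements, so their rise on plastic and their fall on soft gel are descriptions. Counts of edgeR calls given below come from fits over all genes and do not test the members as a group.

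The cells were fibroblasts from ventricles of wild-type adult rats, grown in DMEM/F-12 with fetal bovine serum at 20%. Cultures either stayed on polystyrene, the stiff plastic of ordinary dishes, or spent 48 h on a flat, soft poly(ethylene glycol) norbornene hydrogel, which is a network of a synthetic polymer swollen with water. Polyadenylated RNA was sequenced in 3 libraries for each of the 4 combinations of surface (plastic or soft gel) and passage (3 or 6). The labels call the replicates biological, but leave unstated if each was a separate animal and whether cells staying on plastic were replated when the others were moved.

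Fibroblasts sense the stiffness of the surface they grow on through integrin adhesions and the tension of their actin cytoskeleton. On stiff plastic, cardiac fibroblasts tend to become myofibroblasts, contractile cells that deposit matrix, and repeated passaging can drive cells towards senescence, a lasting arrest of division often accompanied by secretion of inflammatory factors. Soft gels are used to ask which of these changes persist once the stiff surface is removed. The level to which soft gel brought the passage-raised genes back is therefore given here relative to plastic at passage 3.

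Library totals ran from 47834926 to 71464905 counts, and 14660 genes passed a filter on low counts, all 64 members among them. The table lists Ensembl identifiers without gene names, and 0 of the 32623 identifiers matched the reference gene table, so the functions of the members and the markers of fibroblasts and other heart cells were not checked here. Only 4 members are given by identifier. Within a passage, same-numbered libraries of the 2 surfaces deviated together from their group means, and each such couple is called a pair. The replicate numbers did not pair the passages, so passage and any other feature that set the late cultures apart from the early ones cannot be told apart. In bulk RNA, fewer cells expressing a gene and less of its RNA per cell cannot be told apart either.

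On plastic, the first clause of the rule was met by 292 genes, and 71 of these were lower on soft gel by the required factor in all 3 pairs of passage 6. Another 46 of the 292 were lower by that factor in 2 pairs, 39 in 1 pair and 136 in none. The third clause removed 7 of the 71. A fall by that factor in every pair was therefore seen in 24.3% of the genes raised with passage, while 48 of the 292 were at least 1.3 times higher still on soft gel in all 3 pairs. The shares of all genes that match these counts are not given here. The plastic libraries of passage 6 that chose the rise also enter the fall, which favours lower levels on soft gel. The rule's count depended on plastic library 1 of passage 6, in which the members rose least. Without that library, and so without its pair, 144 genes met the rule, and without plastic library 2 of passage 6, 109 did, all 64 members among them each time. A required passage rise of 2-fold left 36 genes. A rule with no pairing, in which the highest soft gel library had to lie below the lowest plastic library of passage 6 by the same factor, left 37.

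Members near the thresholds were close to genes outside them. The 3 members with the smallest ratio of lowest passage 6 to highest passage 3 plastic level had ratios of 1.503, 1.504 and 1.505, and the nearest genes outside had 1.48, 1.47 and 1.46. For the smallest plastic to soft gel ratio among the passage 6 pairs, the values were 1.31, 1.31 and 1.34 inside and 1.297, 1.28 and 1.28 outside. For the lowest plastic level at passage 6 they were 2.201, 2.50 and 2.63 CPM inside and 1.91, 1.84 and 1.64 CPM outside. For the highest passage 3 log2 ratio they were -0.68, -0.68 and -0.66 inside and -0.74, -0.83 and -0.87 outside.

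The members covered a wide range of abundance. Mean plastic levels at passage 6 ran from 3.24 to 5269 CPM with a median of 33.4 CPM, and 18 members stood at 100 CPM or more. Their mean plastic levels at passage 3 ran from 0.0620 to 2614 CPM with a median of 5.30 CPM, and 9 members were below 1 CPM there. Summed over the 64 genes, the members took 0.480%, 0.451% and 0.457% of all counts in plastic libraries 1, 2 and 3 of passage 3. On plastic at passage 6 the shares were 0.957%, 1.18% and 1.32%, and soft gel at that passage gave 0.512%, 0.649% and 0.523%. On soft gel at passage 3 they took 0.393%, 0.350% and 0.401%. The summed share was thus above every other library in the 3 plastic libraries of passage 6, and the soft gel libraries of passage 6 lay just above plastic of passage 3. The most abundant gene made up much of this sum. Without it, the share was 0.197% to 0.208% on plastic at passage 3, 0.512% to 0.731% on plastic at passage 6 and 0.257% to 0.311% on soft gel at passage 6.

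**Figure D1:**
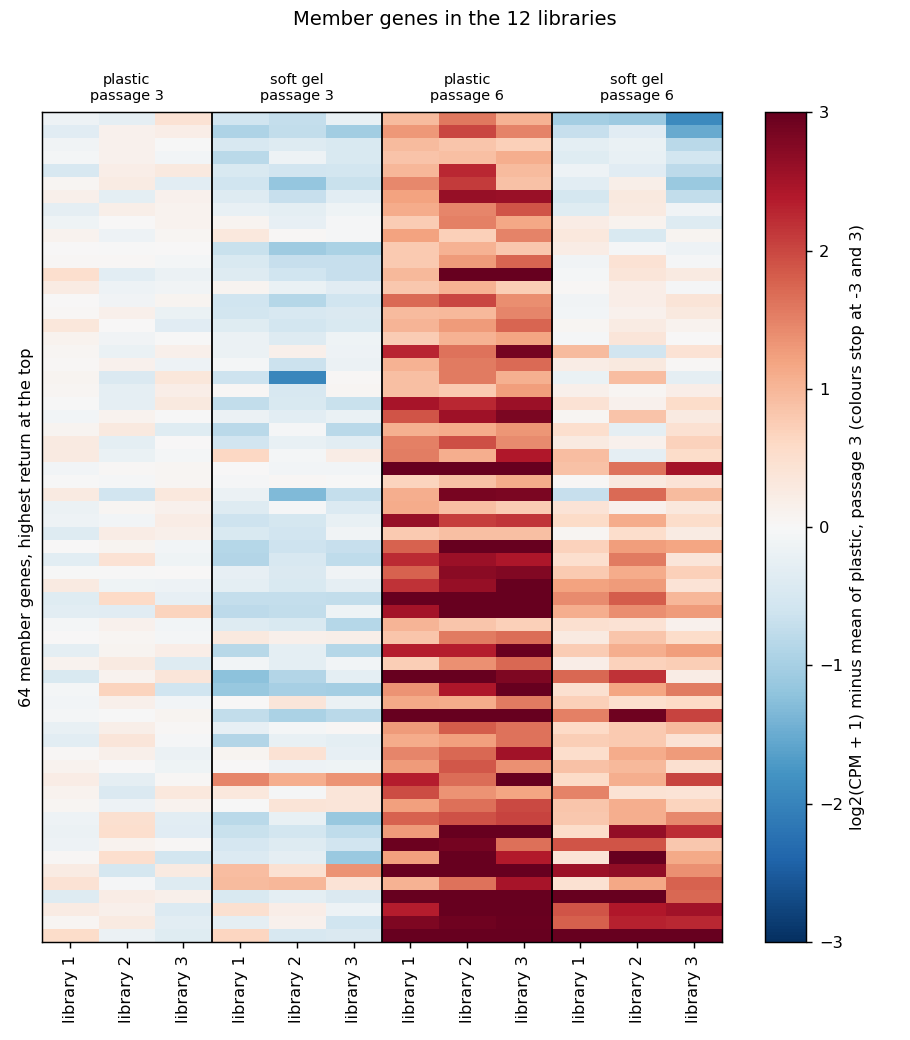
Heat map of the 64 members (rows, ordered by return with the highest at the top) in the 12 libraries (columns, in 4 groups of 3). Colour gives log2(CPM + 1) minus the gene's mean on plastic at passage 3, red for higher and blue for lower, with colours stopping at -3 and 3. All 64 rows are red in the 3 plastic libraries of passage 6, and the soft gel libraries of passage 6 grade from blue at the top to red at the bottom.

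The most abundant member, ENSRNOG00000002746, stood at 2815, 2430 and 2597 CPM in plastic libraries 1, 2 and 3 of passage 3. It stood at 4451, 5415 and 5940 CPM on plastic at passage 6. On soft gel it stood at 2324, 1988 and 2405 CPM at passage 3 and at 2545, 3378 and 2612 CPM at passage 6. All 3 plastic libraries of passage 6 lay above the other 9 libraries, and the soft gel libraries of passage 6 overlapped plastic of passage 3, with only library 2 above it. The mean on soft gel at passage 6 was 2845 ± 463 CPM against 2614 ± 193 CPM on plastic at passage 3 (SD, n = 3), a ratio of 1.09. On the log2(CPM + 1) scale the gene was 1.003 higher on plastic at passage 6 than at passage 3 and 0.89 lower on soft gel than on plastic at passage 6. The fall was 88.7% of the rise.

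ENSRNOG00000017307, the second in abundance, had nearly the same course. It stood at 604, 660 and 517 CPM on plastic at passage 3 and at 1149.5, 1169.6 and 1644 CPM on plastic at passage 6. On soft gel it stood at 404, 423 and 435 CPM at passage 3 and at 559.6, 642 and 723 CPM at passage 6. The soft gel libraries of passage 6 again overlapped plastic of passage 3, and all 3 were above every soft gel library of passage 3. The fall on soft gel at passage 6 was 90.3% of the rise on plastic. This gene was also lower on soft gel in all 3 pairs of passage 3, by 0.58, 0.64 and 0.25 on the log2(CPM + 1) scale, so soft gel at passage 6 brought it to the passage 3 plastic level but not to the passage 3 soft gel level.

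The largest fall on soft gel was that of ENSRNOG00000058560. It was close to undetected at passage 3, with 0, 6 and 6 counts on plastic and 4, 0 and 0 on soft gel. On plastic at passage 6 it stood at 38.2, 113 and 459 CPM in libraries 1, 2 and 3, and on soft gel at 0.957, 2.26 and 4.95 CPM. Each soft gel library of passage 6 was lower than its plastic partner by a factor of at least 39.9, yet all 3, with 55, 129 and 354 counts, were above every library of passage 3. The return was 75.9% on the log2(CPM + 1) scale, where 1 is added to levels near 0.

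The second largest fall was that of ENSRNOG00000048389, a gene of low abundance. It stood at 2.49, 2.21 and 4.28 CPM on plastic and at 1.56, 1.39 and 2.33 CPM on soft gel at passage 3. On plastic at passage 6 it stood at 6.51, 10.6 and 6.97 CPM, and on soft gel at 0.922, 0.824 and 0.0420 CPM, the last from 3 counts. All 3 soft gel libraries of passage 6 lay below every other library. The fall was 213% of the rise, the highest return among the 64 members.

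**Figure D2:**
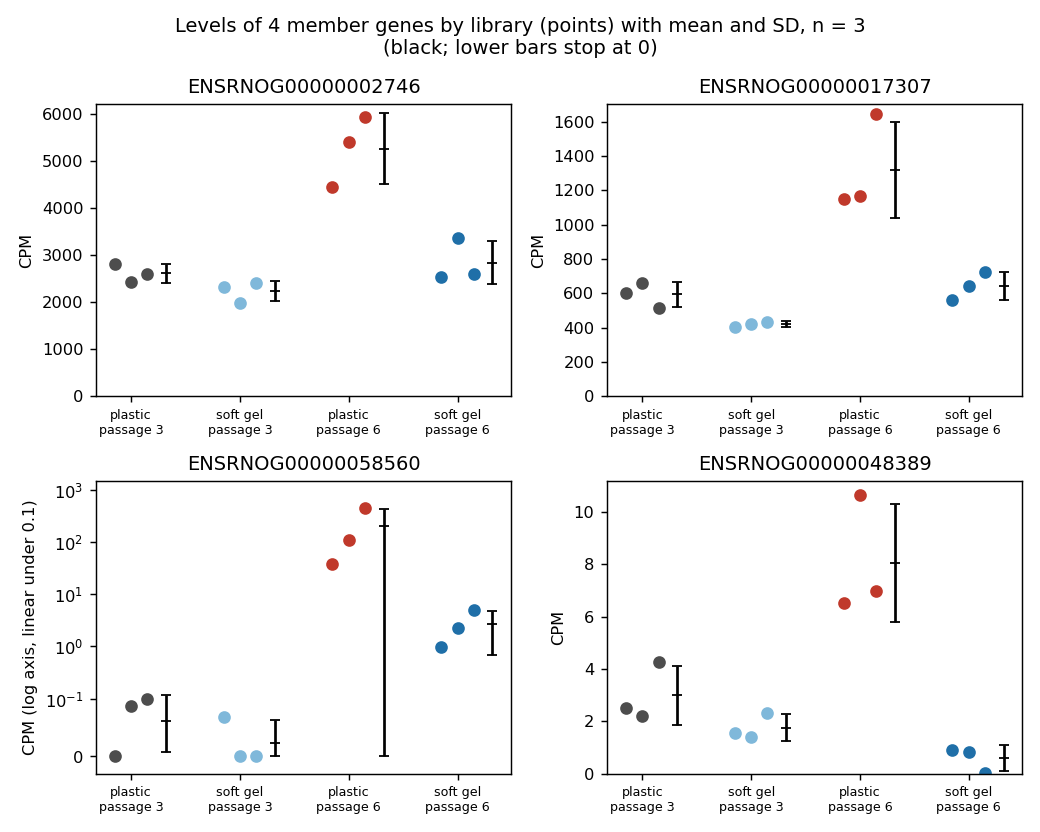
CPM of the 4 members given by identifier in each library (points) with the group mean and SD of 3 libraries (black, with lower bars stopping at 0), one panel a gene and 4 groups a panel. ENSRNOG00000058560 is drawn on a log axis that is linear under 0.1 CPM. The passage 6 plastic points lie above those of the other 3 groups in each panel, while the passage 6 soft gel points overlap passage 3 plastic in the upper panels, lie above it for ENSRNOG00000058560 and below it for ENSRNOG00000048389.

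The return of a gene was computed as the fall from plastic to soft gel at passage 6 divided by the rise from passage 3 to passage 6 on plastic, both as differences of mean log2(CPM + 1). A return of 100% places soft gel at passage 6 on the passage 3 plastic level. The rule makes every return positive. Over the 64 members the median return was 67.3%, with quartiles of 50.5% and 89.9% and a range from 23.8% to 213%. Of the members, 15 returned by less than 50%, 39 by 50% to 100% and 10 by more than 100%. Computed within the pairs of passage 6, the medians were 69.2%, 59.0% and 72.6% for pairs 1, 2 and 3. The median depended on the scale. It was 82.6% on linear CPM, and 76.9% with TMM scaling, which sets library sizes so that most genes do not change.

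The substrates also differed over all genes. With CPM by total count, the median of the 14660 genes tested was 0.13 higher on soft gel than on plastic at passage 6 on the log2 scale, and -0.00 with TMM scaling. The median difference of the members was -1.21 by total count and -1.36 with TMM scaling. Relative to the median gene, the fall on soft gel was thus larger than the CPM show. With TMM scaling 54 members returned by at least 50% and 16 by at least 100%.

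Against the spread of the 3 plastic libraries of passage 3, the members fell into 3 classes. In 9 members all 3 soft gel libraries of passage 6 lay at or below the highest plastic library of passage 3, and in 4 of these, ENSRNOG00000048389 among them, they lay below the lowest, where 14.6% of all genes tested did. In 27 members 1 or 2 soft gel libraries did so, including both of the most abundant ones. In 28 members, or 43.8%, all 3 soft gel libraries remained above the highest plastic library of passage 3, where 35.5% of all genes tested lay that way. The first class held 14.1% of the members, where 31.2% of all genes tested had all 3 soft gel libraries at or below the highest plastic library. The first class grew to 14 members without soft gel library 2 of passage 6. Leaving out a late soft gel library removes a condition, so this class could only stay or grow. With TMM scaling, the first class held 12 members and the last 23. TMM scaling divided the CPM by 0.932 to 0.958 on plastic at passage 3 and by 1.04 to 1.11 on soft gel at passage 6. It thus lowered late soft gel against early plastic for all genes. The shares of all genes above are by total count, and those with TMM scaling are not given here.

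Mean soft gel levels at passage 6 were at or below the mean plastic level of passage 3 in 9 members, up to 1.5 times that level in 22 and up to 2 times in 10. They were up to 4 times the level in 11 members and more than 4 times in 12. The lowest return, 23.8%, belonged to a gene with 1.04, 0.231 and 0.0826 CPM on plastic at passage 3. It stood at 65.1, 165 and 53.7 CPM on plastic at passage 6 and at 22.6, 66.7 and 19.0 CPM on soft gel. Each soft gel library was lower than its plastic partner by a factor of more than 2, but far above every library of passage 3. Near the other end, a gene with a return of 153% stood at 39.3, 46.6 and 42.2 CPM on plastic at passage 3, at 83.4, 76.4 and 70.0 CPM on plastic at passage 6 and at 34.4, 36.7 and 24.1 CPM on soft gel, below all 3 early plastic libraries.

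In edgeR's quasi-likelihood test on counts, with p-values adjusted over all 14660 genes and a threshold of 0.05, 21 members were higher on soft gel at passage 6 than on plastic at passage 3, or 32.8%, where 14.7% of all genes were called higher. Another 4 members were called lower, where 13.0% of all genes were. Both groups of this comparison also entered the rule, so these calls are a description. Leaving out plastic library 1, 2 or 3 of passage 3 lowered the 21 to 12, 13 and 12, and leaving out library 2 of late soft gel lowered it to 11. Over all genes these calls fell too, from 2156 to 1451, 1372, 1312 and 1682 in the same order. ENSRNOG00000002746 and ENSRNOG00000017307 were not called, with log2 fold changes of -0.06 ± 0.16 and -0.07 ± 0.14 (SE, edgeR adjusted p = 0.817 and 0.733) and adjusted p of at least 0.308 under all 18 alternatives run. The sign of both changed under some of these alternatives, with fold changes up to 0.02 and 0.01, so no direction is given. ENSRNOG00000058560 remained higher, at 5.22 ± 1.297 (edgeR adjusted p = 0.0132, passing under all 18 alternatives), and ENSRNOG00000048389 was lower, at -2.50 ± 0.73 (edgeR adjusted p = 0.0265). The last call was lost without plastic library 1 or 3 of passage 3 and with only the 2 groups in the fit, at adjusted p = 0.0508, 0.0856 and 0.0876.

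**Figure D3:**
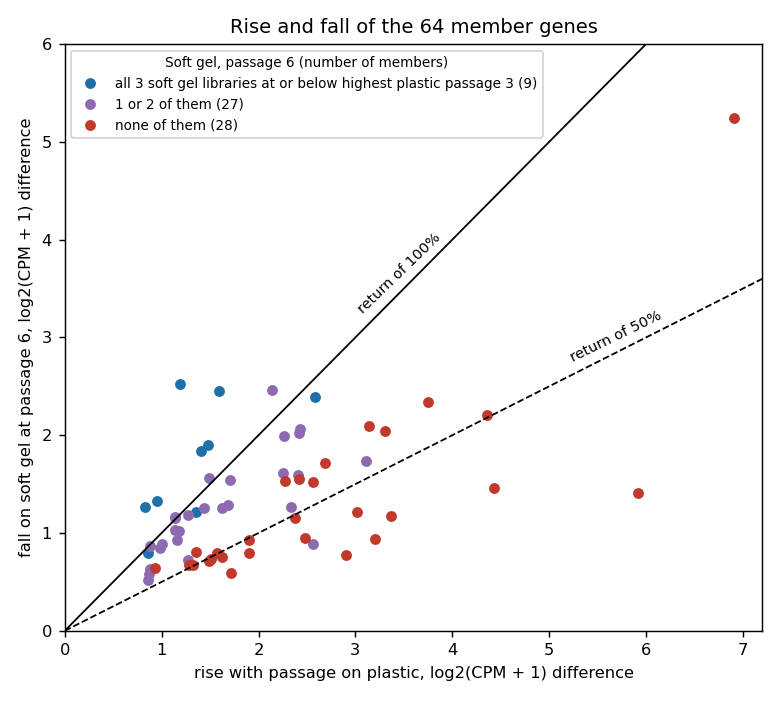
Rise on plastic from passage 3 to passage 6 (x axis) and fall from plastic to soft gel at passage 6 (y axis) of the 64 members, both as differences of mean log2(CPM + 1). Colours give the 3 classes of 9, 27 and 28 members by how many soft gel libraries of passage 6 lay at or below the highest plastic library of passage 3, and lines mark returns of 100% and 50%. Members with rises under 2 lie on both sides of the 100% line, and all those with rises above 3 lie under it.

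Members that rose more fell more on soft gel but covered a smaller part of the way back. The 9 members whose rise was under 2-fold had a median return of 85.5%, and 1 of them had all 3 soft gel libraries above plastic of passage 3. The 28 members with a rise of 2- to 4-fold had a median return of 83.6%, with 10 in that position. The 27 members with a rise of 4-fold or more had a median return of 61.9%, with 17 in that position. Their median fall of 1.60 on the log2(CPM + 1) scale was larger than the 0.79 of the first class. Spearman's rho across the 64 members between rise and return was -0.537. Both measures contain the same plastic libraries. The rule also requires a fall of at least 1.3-fold in every pair whatever the rise, which bars low returns where the rise is small. The rule thus favours a negative value, and the value and the medians by rise describe the members only.

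The rise on plastic differed between the 3 libraries of passage 6. Relative to the passage 3 mean, the median member stood 1.27 higher in plastic library 1 on the log2(CPM + 1) scale, against 1.84 and 1.82 in libraries 2 and 3. Library 1 was the highest of the 3 for 8 members, library 2 for 21 and library 3 for 35. On soft gel the order changed, since library 2 was the highest for 36 members, library 3 for 16 and library 1 for 12. The medians on soft gel were 0.47, 0.75 and 0.45 above the passage 3 plastic mean in libraries 1, 2 and 3. Accordingly the fall on soft gel was largest in pair 3, with a median of -1.53, against -0.98 in pair 1 and -1.06 in pair 2. The libraries of a group varied more at passage 6, where the median SD was 0.37 on plastic and 0.32 on soft gel, than at passage 3, where these SDs were 0.25 and 0.20.

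**Figure D4:**
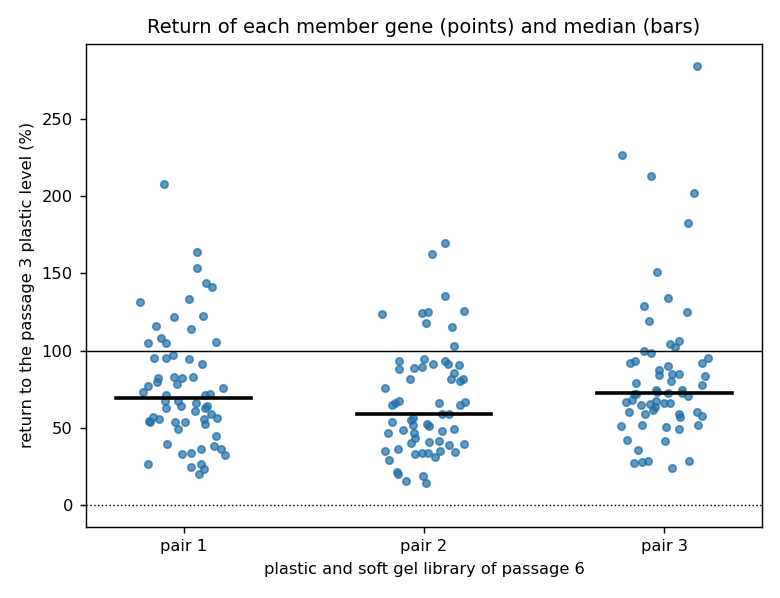
Return of each of the 64 members (points) within each pair of a plastic and a soft gel library of passage 6, in percent of the rise above the mean of plastic at passage 3. Bars mark the medians of 69.2%, 59.0% and 72.6%, and the line at 100% marks the passage 3 plastic level. All points are above 0, as the rule requires.

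Members tended to keep their place between pairs. The returns had Spearman's rho of 0.548 between pairs 1 and 2, 0.649 between pairs 1 and 3 and 0.651 between pairs 2 and 3, over 64 genes that share the same passage 3 plastic mean. In 34 members the return was at least 50% in all 3 pairs, and in 5 it was at least 100% in all 3. In 3 members it was under 50% in all 3 pairs.

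The difference between soft gel and plastic was not limited to passage 6. At passage 3, 44 of the 64 members, or 68.8%, were lower on soft gel in all 3 pairs, where 19.0% of all genes tested were. That share of all genes is by total count and for a fall of any size. With TMM scaling 46 members were lower on soft gel in all 3 pairs. In 26 members the fall was at least 1.3-fold in each pair of passage 3. The shares of all genes that match these counts of 46 and 26 are not given here. The median difference at passage 3 was -0.35, -0.41 and -0.31 on the log2(CPM + 1) scale in pairs 1, 2 and 3, while the median of all genes tested lay between 0.07 and 0.10. The fall was larger at passage 6 than at passage 3 in 62 of 64 members. The rule favours this order, since it requires a fall in every pair of passage 6, so the count is a description. The third clause of the rule leaves out genes with a strong fall in every passage 3 pair, and the 7 genes it removed had differences from -1.28 to -0.85.

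Tested without pairs in edgeR, soft gel at passage 3 was lower than plastic in 5 of the 64 members, where 1.17% of all genes were called lower. With a term for each pair, 32 members were called lower, where 9.90% of all genes were. Leaving out plastic library 1, 2 or 3 of passage 3 gave 2, 3 and 2 calls. Over all genes tested, these fits called 34, 24 and 24 lower. Leaving out any one of the soft gel libraries of that passage gave 1 call. Those fits called 19, 29 and 33 of all genes lower. Without library 3 of late soft gel the count was 8, where 259 of 14976 genes were called. With only the 2 groups in the fit 18 of 63 members tested were called lower, where 1176 of 14006 genes were. With DESeq2 17 members were, where 597 of 14660 genes were. Since a strong fall in every pair was barred, these counts describe the members and are not evidence independent of the rule.

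**Figure D5:**
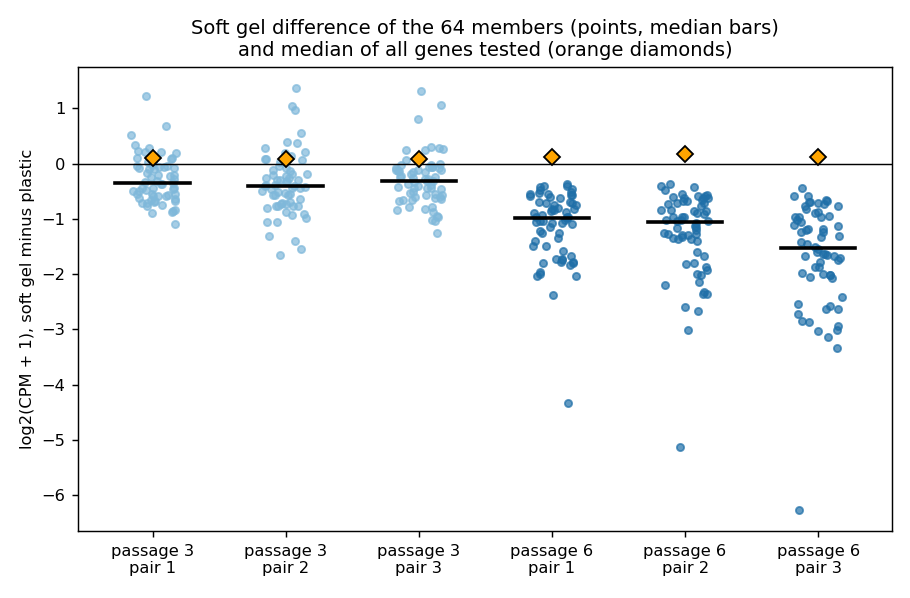
Soft gel minus plastic in log2(CPM + 1) for each of the 64 members (points) in the 3 pairs of passage 3 and the 3 pairs of passage 6. Bars mark the members' medians, between -0.41 and -0.31 at passage 3 and between -1.53 and -0.98 at passage 6, and orange diamonds mark the median of all 14660 genes tested, between 0.07 and 0.17. At passage 6 all points lie below 0 by the rule, and at passage 3 they lie on both sides.

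Among all genes raised with passage on plastic, a lower level on soft gel at passage 3 went with reversal at passage 6. Of the 71 genes that met the first 2 clauses, which set no limit at passage 3 on soft gel, 51 were lower on soft gel in all 3 pairs of passage 3, or 71.8%. Of the 221 other passage-raised genes, 28 were, or 12.7%. The median soft gel difference at passage 3 was -0.46 for the 71 genes and 0.32 for the 221. Both groups were split by passage 6 libraries, while all of these genes were chosen on the plastic libraries of passage 3 that enter the difference. No test was made across genes.

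A smaller set of 7 members went the other way at passage 3, with higher levels on soft gel in all 3 pairs, where 41.9% of all genes tested were higher. Their differences at passage 3 ran from 0.17 to 1.302 on the log2(CPM + 1) scale, and at passage 6 from -1.28 to -0.59. The clearest case stood at 26.9, 18.7 and 23.5 CPM on plastic and at 64.2, 49.9 and 59.7 CPM on soft gel at passage 3. At passage 6 it stood at 120, 74.4 and 207 CPM on plastic and at 34.4, 49.8 and 95.6 CPM on soft gel. On soft gel its passages overlapped, and soft gel was above plastic at passage 3 and below it at passage 6. In 6 of the 7 members all 3 soft gel libraries of passage 6 remained above plastic of passage 3. With TMM scaling 4 members were higher on soft gel in all 3 pairs of passage 3. The share of all genes on that scale is not given here.

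Soft gel cultures also differed between passages. The mean log2(CPM + 1) on soft gel was higher at passage 6 than at passage 3 in 60 of 64 members, and the mean CPM in 62. In 44 all 3 libraries of passage 6 lay above all 3 of passage 3, where 20.5% of all genes tested did. The median difference was 0.76 on the log2(CPM + 1) scale, against 1.65 on plastic. For the median member the passage difference on soft gel was 47.6% of that on plastic. Taking soft gel instead of plastic at passage 3 as the reference level, the median return was 55.7%, and in 2 members all 3 soft gel libraries of passage 6 lay at or below the highest early soft gel library. The share of all genes that matches this count of 2 is not given here. The surfaces did not share libraries in this comparison of passage differences. The rule, however, required the rise on plastic and held each late soft gel library below its plastic partner. A smaller passage difference on soft gel was therefore favoured by the choice of members and is a description.

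Both soft gel groups entered the rule, and late soft gel libraries deviate together with the late plastic libraries whose high levels chose the members, so the calls of this difference are also a description. In edgeR's fit, 31 of the 64 members were higher on soft gel at passage 6 than on soft gel at passage 3, or 48.4%, where 6.76% of all genes were called higher. Of the members, 0 were called lower by edgeR, where 5.50% of all genes were at the adjusted threshold. With DESeq2 0 members were, where 1325 of 14660 genes were called lower. At an unadjusted edgeR p under 0.05, 1 member was lower, and the share of all genes at that threshold is not given here. ENSRNOG00000017307 was called at a log2 change of 0.55 ± 0.14 (edgeR adjusted p = 0.0304). It missed the threshold when any one of the early soft gel libraries, or library 2 or 3 of late soft gel, was left out, at adjusted p between 0.0797 and 0.106. ENSRNOG00000002746 was not called, at 0.30 ± 0.16 (edgeR adjusted p = 0.254). ENSRNOG00000058560 was called at 6.71 ± 1.55 (edgeR adjusted p = 0.0187), with 55, 129 and 354 counts against 4, 0 and 0. The size of the fitted fold change depends on the 4 counts of soft gel library 1 of passage 3, and was 10.3 without that library. The gene missed the threshold when any one of the soft gel libraries of passage 3 was left out, at edgeR adjusted p up to 0.0713. ENSRNOG00000048389 was not called, at -1.61 ± 0.71 (edgeR adjusted p = 0.174).

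For the contrasts that the rule itself used, 60 of 64 members were called higher on plastic at passage 6 than at passage 3, where 7.67% of all genes were. On soft gel at passage 6, 49 were called lower than on plastic, where 5.09% of all genes were. With only the 2 groups in the fit, the 49 became 13, while the 746 calls over all genes became 89. With a term for each pair, all 64 members were called lower, where 1845 of 14660 genes were. Nothing is read from these counts, since the members were chosen for both differences.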

How the data were processed

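The 12 libraries, 3 in each of 4 groups, were read as pairs of 150 bases. The authors deposited a table of raw counts per Ensembl gene identifier. HISAT2 2.1.0, FastQC 0.11.5, Cuffnorm 2.2.1 and Cufflinks, and the build Rnor_6.0, are listed in the submitters' processing notes without their settings. Which program counted the reads, with which strand setting and annotation release, is not given in the sources used here, so reads of overlapping or near-identical genes may be split or shared in ways that were not checked.

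CPM were computed from the column sums. Counts were tested with edgeR 4.0.16 (R 4.3.3) by its quasi-likelihood test after filterByExpr and TMM scaling, with the 4 groups in 1 model and Benjamini-Hochberg adjustment over 14660 genes. DESeq2 1.42.0, other scalings and filters, fits with only the groups compared, a replicate block and fits without each library were run as alternatives. The fitting script was tested on simulated data. The replicate numbers paired plastic with soft gel within a passage, since same-numbered libraries deviated together (correlation 0.392 to 0.610 at passage 3 and 0.621 to 0.775 at passage 6), but not the passages (-0.294 to 0.0190). No libraries were duplicates by a chi-square comparison of their counts. The p-values set the difference between groups against the spread between libraries, which may be technical. The main fit held no term for the pairs.

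The members and lists were chosen with earlier results of these data known. Members with a gene symbol were to be named by level, rise, fall and return. Since 0 of 32623 identifiers matched the RefSeq GRCr8 table, only the highest 2 by passage 6 plastic level are given by identifier, and the 2 with the largest fall were added after their values were seen. The 31 gene lists, promoters and proteins were not used for the same reason.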

Additional observations from a re-analysis of the deposited data

Results flagged for a closer look

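A total of 7 members were higher on soft gel than on plastic in all 3 pairs of passage 3 and lower in all 3 pairs of passage 6. They were set apart because every pair moved one way at one passage and the opposite way at the other. By total count, 41.9% of all genes tested were higher on soft gel in all 3 pairs of passage 3, so that sign is not particular to the 7. The lower level at passage 6 was required by the rule, and the difference between the passages was not tested. The soft gel differences of the 7 members on the log2(CPM + 1) scale had a median of 0.25 at passage 3, with returns between 29.2% and 76.3% and a median of 47.5%. With TMM scaling 4 members were higher on soft gel in all 3 pairs of passage 3, and the share of all genes on that scale is not given here.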

How the results depend on the processing

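The number of members was 64, 36 with a passage rise of at least 2-fold, 37 with no pairing in the rule, and 58 to 144 without single libraries. Leaving out a passage 6 library removes a condition from the rule, and leaving out a passage 3 library also removes a pair that could meet its last clause. The median return of 67.3% became 76.9% with TMM scaling, 55.7% with soft gel at passage 3 as reference and 82.6% on linear CPM, and lay between 65.9% and 70.1% without single libraries. With the replicate block, as the median of returns within pairs, it was 66.6%. The 9 members with all late soft gel libraries at or below the highest early plastic library became 2 with soft gel at passage 3 as reference and 6 to 14 without single libraries. The shares of all genes that match these changed counts are not given here. By its definition this count can only stay or rise without a late soft gel library, and only stay or fall without an early plastic library. Calls of members by edgeR without single libraries ranged from 11 to 24 for soft gel at passage 6 above plastic at passage 3, from 24 to 36 for soft gel at passage 6 above soft gel at passage 3, and from 52 to 62 for the rise on plastic. Over all genes, the calls in these fits ranged from 1312 to 2264, from 436 to 1097 and from 522 to 1206 in the same order. Calls of members ranged from 40 to 49 for the fall on soft gel at passage 6, which became 13 with only the 2 groups in the fit, and from 1 to 8 for the fall at passage 3. Without single libraries, calls over all genes ranged from 441 to 758 for the fall at passage 6 and from 19 to 292 for that at passage 3. In the fit with only the 2 groups, the 746 calls over all genes for the fall at passage 6 became 89. With the replicate block all 64 members were called for that fall, where 1845 of 14660 genes were. The 5 calls of the fall at passage 3 became 18 with only the 2 groups, 32 with the replicate block, 12 without both libraries of pair 3 of passage 6 and 17 with DESeq2. Over all genes the 172 calls became 1176, 1452, 569 and 597 in the same order. The causes of these changes were not tested. The log2 change from early plastic to late soft gel, not called in any fit, changed sign for both abundant genes. That of ENSRNOG00000002746 was -0.06 and lay between -0.224 and 0.0232 without single libraries, above 0 when plastic library 1 of passage 3 or late soft gel library 1 or 3 was left out, and at 0.0231 without both libraries of pair 3 of passage 6. That of ENSRNOG00000017307 was -0.07 and lay between -0.172 and 0.0115, above 0 when plastic library 2 of passage 3 or late soft gel library 1 was left out. The count of members without pair 3 of passage 6 was added after seeing the data. With 3 libraries a group, and with few counts for genes under 1 CPM, small differences were not detectable at this depth.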

Other observations

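The opposite set, genes lowered with passage on plastic by the mirrored first clause, held 221 genes. Of these, 57, or 25.8%, were higher on soft gel in all 3 pairs of passage 6 by the mirrored factor, against 24.3% of the raised genes reversed. With TMM scaling these shares were 16.9% and 30.6%, so their order changed with the scaling. The matching shares of all genes are not given here. Plastic libraries of passage 6 both chose these genes and enter the soft gel difference, which favours reversal in both sets. No test was made across genes.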
